A study of Homo sapiens with 12 samples.

Results

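The genes described here encode the proteasome: the subunits of its core and regulatory particles, the factors that assemble them, and the complexes that open or block the core. They were taken by symbol from a table of 23615 genes, as all PSMA, PSMB, PSMC, PSMD, PSME, PSMF and PSMG genes together with ADRM1, POMP and SHFM1. Of 51 matching symbols, 47 had a mean of at least 1 CPM (counts scaled to the library's total, per 1e6 counts) over the 12 libraries and were kept. The other 4 were PSMA8, PSMB8, PSMB9 and PSMB11, whose mean CPM was 0.0184, 0.0185, 0.109 and 0.00576.

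The proteasome is the protease that degrades ubiquitin-tagged proteins in the cytosol and nucleus. Its barrel-shaped core particle is a stack of alpha and beta rings with the catalytic sites facing inward, and a regulatory particle, made of a base with a ring of ATPases and a lid that removes ubiquitin, unfolds substrates and feeds them in. Its subunits are made in fixed proportion, dedicated chaperones build the particles, and ring-shaped activators can replace the regulatory particle. Oxidatively damaged and aldehyde-modified proteins are among its known substrates.

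The study measured total RNA, after removal of ribosomal RNA, in HEK293T cells, a human embryonic kidney cell line. A pair of lines made by lentiviral infection and puromycin selection was used, 1 carrying a hairpin against ELAVL1, the gene of the RNA-binding protein HuR (shHuR), and 1 carrying a control hairpin (shControl). Each line was left untreated, given 25 µM HNE (hydroxynonenal, a reactive aldehyde of lipid peroxidation, in its alkyne form) or given 225 µM H2O2 (hydrogen peroxide), both for 18 h, with 2 biological replicates for each of the 6 groups. HuR is known for binding AU-rich and U-rich stretches in mRNA and for stabilising many of the mRNAs it binds. Each line rests on 1 hairpin, so a difference between the lines cannot be told apart from other differences between the 2 selected populations.

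The libraries held 24855946 to 29907258 counts. ELAVL1, the hairpin's target, ran from 86 to 99.4 CPM in shControl and from 69.3 to 74.5 CPM in shHuR, so the groups did not overlap but most of the mRNA remained. Of 9 genes known from HEK293T cells, 6 (NEFL, NEFM, INA, CDH2, KRT8 and KRT18) were at 3.41 CPM or more in every library. PAX2 (0.146 to 0.489 CPM), LHX1 (0.535 to 1.26 CPM) and GATA3 (0.749 to 2.07 CPM) were low. Of 8 markers of other cell types, 7 (PTPRC, CD3E, HBB, ALB, COL1A2, CDH5 and KRT5) were at or below 0.224 CPM, and LYZ lay at 3.75 to 6.94 CPM. The 47 proteasome genes took 0.575% to 0.691% of all counts in a library. Between replicates of a group they tended to move together: replicate 2 was higher than replicate 1 for 38 of 47 genes in shControl with HNE (median difference 0.16 on the log2 scale), and for only 10 of 47 in untreated shHuR (median difference -0.14), while the median over all genes stayed between -0.01 and 0. Replicate 2 of shControl with HNE stood apart within its line, as the values beside each result show.

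Levels per transcript length were compared as FPKM (fragments scaled to transcript length and library size, as deposited). PSMA4, a subunit of the outer alpha ring, had the highest mean level, 384 FPKM, and PSMD5, a chaperone of the base, the lowest, 0.39 FPKM. The alpha ring had a median of 186 FPKM over 7 genes, from PSMA5 at 50.2 to PSMA4 at 384, and the beta ring a median of 168 FPKM over 7 genes, from PSMB2 at 27.8 to PSMB1 at 349. The mRNAs of these rings, whose proteins occur in equal number, thus differed several-fold in FPKM within a ring. By mean CPM, which is not divided by transcript length, the spread was narrower. The alpha ring ran from PSMA6 at 150 to PSMA4 at 387 CPM, and the beta ring from PSMB3 at 94.6 to PSMB1 at 254 CPM. The transcript lengths behind the FPKM values are not given in the sources used here. The 6 ATPases of the base had a median of 71.1 FPKM, the 4 other base subunits 85.7 FPKM and the 9 lid subunits 90.6 FPKM, with the small lid subunit SHFM1 (also named SEM1) at 316 FPKM. The 4 activators lay lower, at a median of 40.9 FPKM, and PSMF1, an inhibitor of the core, at 18.1 FPKM.

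**Figure D1:**
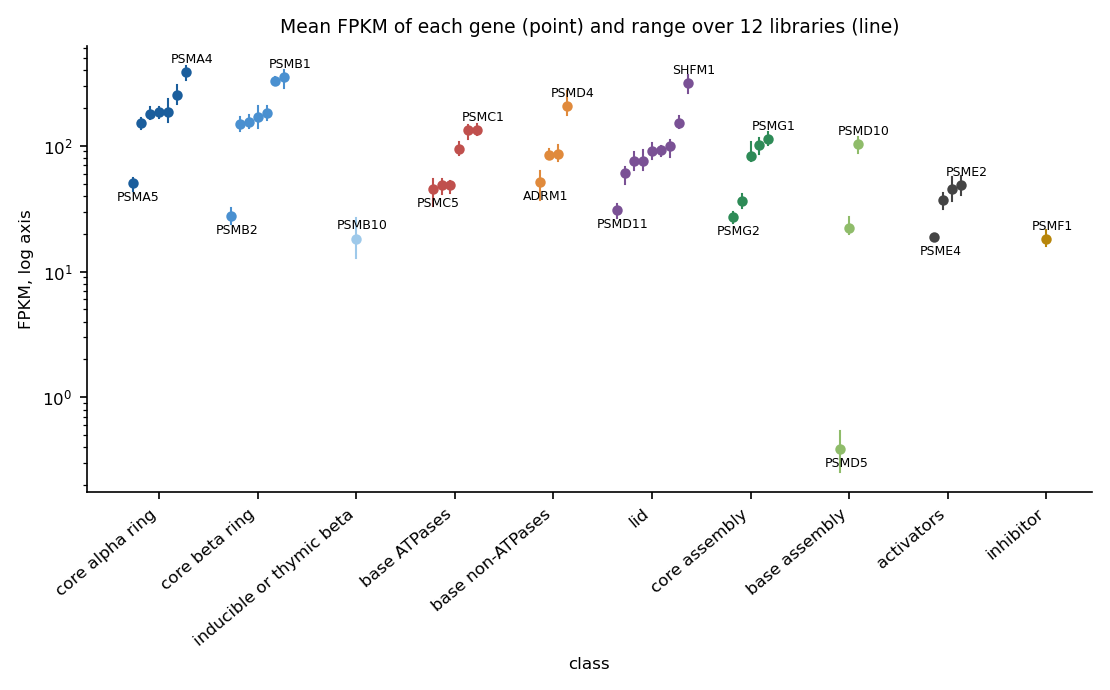
Mean FPKM over 12 libraries (points, log axis) and the range over the libraries (lines) of each of the 47 genes, by class. The core rings are the highest classes, at medians of 186 and 168 FPKM, and PSMD5 stands alone at 0.39 FPKM.

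Of the catalytic subunits that replace the standard ones in the immunoproteasome, the form made in immune cells and under interferon, only PSMB10 was measured at a usable level. It ran from 10.5 to 21.9 CPM in shControl and from 14.5 to 18.5 CPM in shHuR. PSMB8 had 0 to 2 counts and PSMB9 0 to 7 counts in a library, and PSMB11, a thymus subunit, had counts in 1 library. The standard catalytic subunits PSMB5, PSMB6 and PSMB7 had mean levels of 181, 149 and 154 FPKM, against 18.3 FPKM for PSMB10. PSMD5 had only 21 to 49 counts in a library, so its values carry large errors.

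The comparison of the lines asks which mRNAs differ where HuR is reduced. Over all treatments, 20 of 47 proteasome genes were higher in shHuR and 0 were lower, at an adjusted p under 0.05 (edgeR's quasi-likelihood test with treatment in the model, 6 against 6 libraries, Benjamini-Hochberg over 16005 genes). Among all genes tested, 14.1% were called higher and 15.9% lower. In these data 41 of 47 proteasome genes had a positive log2 fold change, with a median of 0.13, while the median over all genes was 0. The differences were small: the largest was 0.45 on the log2 scale, or 36.5%. DESeq2's Wald test called 24, the same 20 among them, and 14 of the 20 were called under each of the 21 alternatives run. Of the 9 HEK293T genes, NEFM and INA were also higher in shHuR (1.10 and 0.80) and NEFL and KRT8 lower (-0.47 and -0.38); their part in the proteasome result was not tested. In bulk RNA, fewer cells of a type and less RNA per cell cannot be told apart. PSMD7 was called in 8, PSMA4 in 12, PSMD14 in 15, PSMD10 in 18, PSMC2 in 19 and PSMB6 in 21 of the 22 fits.

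**Figure D2:**
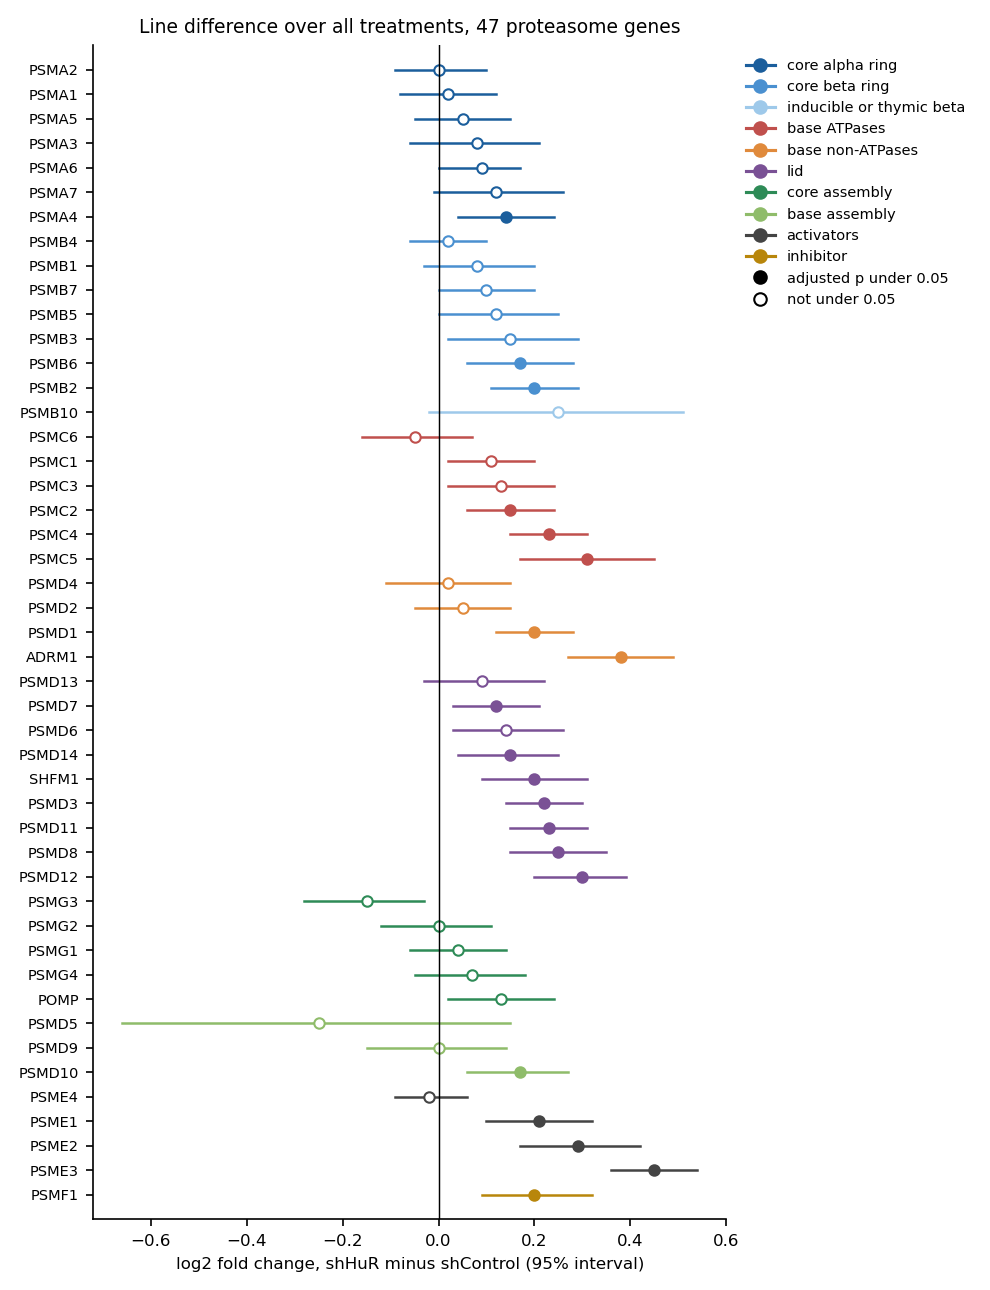
Log2 fold change of shHuR over shControl for each gene, all treatments together, with 95% intervals and colours by class (filled points: adjusted p under 0.05, edgeR). Filled points fill most of the lid and activators, and the core assembly factors have none.

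The called genes were unevenly spread over the classes. Among all genes tested, 14.1% were called higher. The lid had 7 of 9 genes higher, the activators 3 of 4 and the ATPases of the base 3 of 6. The other base subunits had 2 of 4, the beta ring 2 of 7, the alpha ring 1 of 7, the base assembly factors 1 of 3 and the core assembly factors 0 of 5 (with 1 at an unadjusted p under 0.05 in each direction, and 0 by adjusted edgeR p). Class medians were 0.25 for the activators, 0.20 for the lid, 0.14 for the ATPases, 0.12 for the other base subunits and for the beta ring, 0.08 for the alpha ring, 0.04 for the core assembly factors and 0 for the base assembly factors. The alpha ring's count was near the share over all genes. Whether the classes differ from each other was not tested. Leaving out 1 library at a time moved the lid's median between 0.17 and 0.23 and the alpha ring's between 0.04 and 0.10.

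PSME3 showed the largest line difference of the 47. It encodes a ring-shaped activator of the core that resides in the nucleus and acts without ubiquitin. In shControl its replicates lay at 128 and 126 CPM without treatment, at 123 and 126 CPM after HNE and at 120 and 132 CPM after H2O2. In shHuR its replicates lay at 157 and 170 CPM without treatment, at 170 and 175 CPM after HNE and at 186 and 173 CPM after H2O2. All 6 shHuR libraries were above all 6 shControl libraries. The log2 fold change was 0.45 (SE 0.042, 95% interval 0.36 to 0.54, edgeR adjusted p = 6.06e-07), and it stayed between 0.43 and 0.48 when any 1 library was left out.

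Its relatives PSME1 and PSME2 together form the interferon-inducible ring activator. PSME1 ran from 25.5 to 30 CPM in shControl, with a median of 27.7, and from 30.5 to 34.8 CPM in shHuR, with a median of 32. These ranges did not overlap, and the log2 fold change was 0.21 (SE 0.053, edgeR adjusted p = 0.00603). PSME2 ran from 25.8 to 31.8 CPM in shControl (median 27.3) and from 31.3 to 36.6 CPM in shHuR (median 35), a slight overlap. Its log2 fold change was 0.29 (SE 0.060, edgeR adjusted p = 0.00131). PSME4, a large activator of another fold, had overlapping ranges in the lines, 125 to 140 CPM and 125 to 137 CPM, and a log2 fold change of -0.02 (95% interval -0.09 to 0.06). PSMF1, which blocks access to the core, was higher in shHuR by 0.20 (SE 0.055, edgeR adjusted p = 0.0105), with overlapping ranges of 56.8 to 65.9 CPM and 61.9 to 76.4 CPM.

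In the lid, PSMD12 had the largest difference. This scaffold subunit ran from 104 to 121 CPM in shControl (median 107) and from 121 to 146 CPM in shHuR (median 135), and its log2 fold change was 0.30 (SE 0.046, edgeR adjusted p = 0.000129). PSMD8, PSMD11 and PSMD3, further scaffold subunits, were higher by 0.25, 0.23 and 0.22. Of these 4, PSMD12, PSMD8 and PSMD3 had all 6 shHuR libraries above all 6 shControl libraries, although for PSMD12 the closest values both round to 121 CPM. For PSMD8 the ranges were 112 to 134 CPM against 140 to 152 CPM, and for PSMD3 101 to 122 CPM against 129 to 137 CPM. SHFM1 was higher by 0.20, PSMD14, the deubiquitinase that strips ubiquitin chains from substrates, by 0.15 and its partner PSMD7 by 0.12. PSMD13 and PSMD6 did not pass the test, at 0.09 and 0.14 (edgeR adjusted p = 0.249 and 0.0565).

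In the base, ADRM1 was the most different. It encodes a ubiquitin receptor that also docks a deubiquitinase. In shControl its replicates lay at 48.7 and 45.6 CPM without treatment, at 55.8 and 60.5 CPM after HNE and at 59.1 and 58.4 CPM after H2O2. In shHuR its replicates lay at 62.9 and 70.3 CPM without treatment, at 71.8 and 77.8 CPM after HNE and at 74.1 and 68.6 CPM after H2O2. Every shHuR library exceeded every shControl library, and the untreated libraries were the lowest of the shControl line. The line difference was 0.38 (SE 0.051, 95% interval 0.27 to 0.49, edgeR adjusted p = 2.7e-05).

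PSMD1, the large scaffold on which ADRM1 sits, was higher by 0.20 (SE 0.039, edgeR adjusted p = 0.00103), with 240 to 281 CPM in shControl and 265 to 323 CPM in shHuR. The other ubiquitin receptor, PSMD4, and the second large scaffold, PSMD2, had log2 fold changes of 0.02 (95% interval -0.11 to 0.15) and 0.05 (95% interval -0.05 to 0.15). The base thus held members with the second highest and with some of the lowest differences of the set. Among the ATPases, PSMC5 was higher by 0.31 (SE 0.067), PSMC4 by 0.23 (SE 0.040) and PSMC2 by 0.15 (SE 0.042), with edgeR adjusted p = 0.00219, 0.000303 and 0.012. PSMC4 ran from 71.8 to 83.3 CPM in shControl and from 88.7 to 94.1 CPM in shHuR, without overlap. PSMC1 did not pass, at 0.11 (adjusted p = 0.0675), and PSMC6 was the lowest, at -0.05 (95% interval -0.16 to 0.07).

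**Figure D3:**
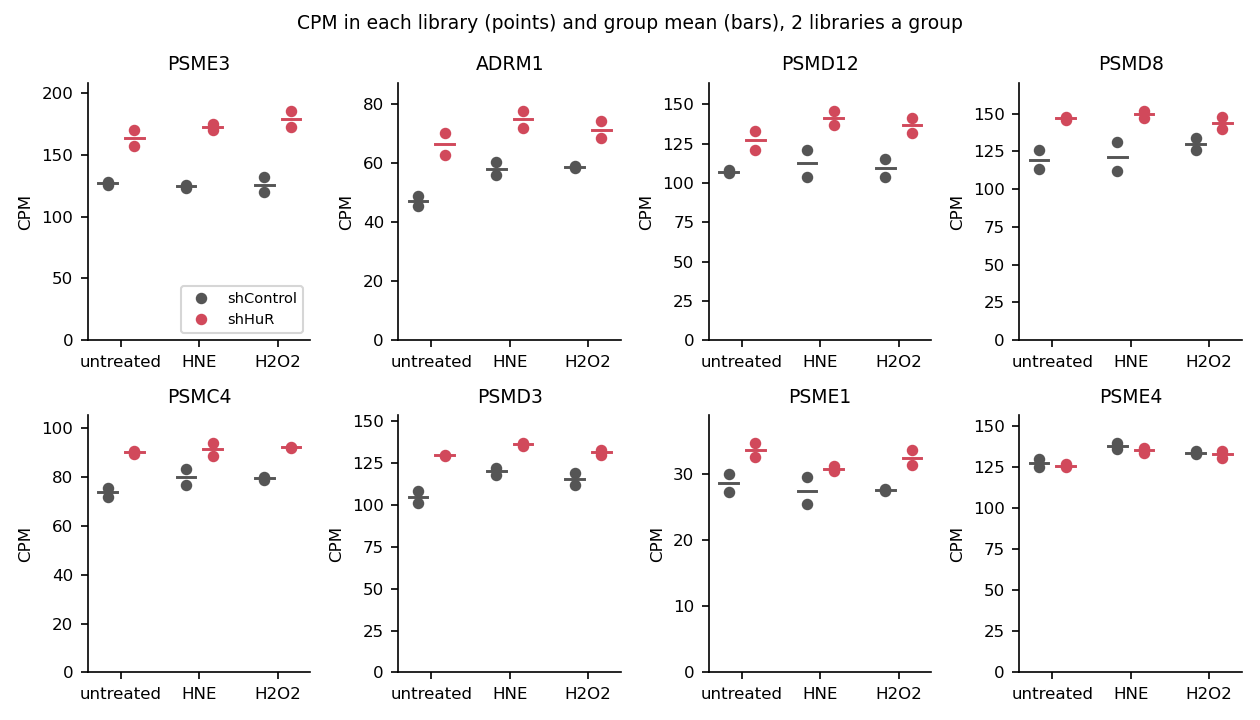
CPM in each library (points) and group means (bars) by line and treatment for the 7 genes whose lines do not overlap, and PSME4. PSME3 lies at 157 to 186 CPM in shHuR and 120 to 132 CPM in shControl, while PSME4 overlaps fully.

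In the core 3 of 14 genes passed (all genes called higher, 14.1%). PSMB2, a structural beta subunit, was higher by 0.20 (SE 0.044, edgeR adjusted p = 0.00242), PSMB6, a catalytic one, by 0.17 (SE 0.051, adjusted p = 0.0168), and PSMA4 by 0.14 (SE 0.046, adjusted p = 0.0291). Their ranges all overlapped, as PSMB6 shows with 86 to 109 CPM in shControl and 94.7 to 112 CPM in shHuR. The catalytic subunits PSMB5 and PSMB7 had differences of 0.12 and 0.10 that did not pass (edgeR adjusted p = 0.119 and 0.12). The 14 core genes lay between 0 (PSMA2) and 0.20 (PSMB2), PSMB4 being the lowest of the beta ring at 0.02. PSMB10 had a wide estimate, 0.25 (95% interval -0.02 to 0.51).

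The core count moved with single libraries. PSMA3, PSMA7, PSMB3, PSMB5, PSMB6 and PSMB10 stood far above their other shControl values in replicate 2 of the HNE group, as did PSMD4, PSMD9 and PSMD13. Of the other core genes, PSMA4, PSMA5, PSMB1, PSMB2 and PSMB4 also had their highest shControl value in that library, while PSMA1 and PSMA2 did not. Many genes of the base and lid peaked there too, such as PSMC1, PSMC6, PSMD1 and PSMD12. Without replicate 2 of shControl with HNE the test called 28 of 47 genes, adding PSMA3, PSMA7, PSMB3, PSMB5, PSMB10, PSMC1, PSMC3 and PSMD13 to the 20, which took the core from 3 to 7 genes. Without replicate 1 of untreated shControl PSMA4 and PSMB6 were lost and the core kept 1, PSMB2. Leaving out each of the other 10 libraries gave 2 to 4 core genes, and PSMA4 was lost in 6 of these fits.

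Among the assembly factors 1 of 8 passed, near the 14.1% of all genes called higher. PSMD10, a chaperone of the ATPase ring also known as gankyrin, was higher by 0.17 (SE 0.051, edgeR adjusted p = 0.0205). PSMD9 had a difference of 0 and PSMD5 one of -0.25 (95% interval -0.66 to 0.15). Among the core chaperones, POMP, which completes the beta rings, lay at 0.13 (adjusted p = 0.0665), and PSMG3 at -0.15 (SE 0.060, adjusted p = 0.0647), the only member with an unadjusted p under 0.05 in the negative direction. PSMG3 ran from 57.1 to 75.6 CPM in shControl and from 54.8 to 59.2 CPM in shHuR. An antisense gene of PSMG3, PSMG3-AS1, has a row of its own with 42 to 106 counts in a library, and one of PSMD6, PSMD6-AS2, has 109 to 253. Whether the counting used strand is not given in the sources used here, so reads of such pairs may have been mixed.

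Counted without a model, 7 genes had all 6 shHuR libraries above all 6 shControl libraries and 0 had all below. Among all genes tested the shares were 5.25% and 6.84%. The 7 were PSME3, ADRM1, PSMC4, PSMD12, PSMD3, PSMD8 and PSME1.

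Within each treatment, with 2 libraries a group, fewer genes passed. In untreated cells 6 were higher in shHuR: ADRM1 by 0.50, PSME3 by 0.37, PSMC4 by 0.29, PSMD3 by 0.31, PSMD8 by 0.30 and PSMB6 by 0.29 (edgeR adjusted p from 0.00299 for ADRM1 to 0.0495 for PSMB6; all genes called higher, 3.50%). With HNE 5 were higher: PSME3 by 0.47, ADRM1 by 0.36, PSMD12 by 0.33, PSMD8 by 0.30 and PSMD1 by 0.24 (all genes, 3.24%). With H2O2 3 were higher: PSME3 by 0.51, PSMD12 by 0.31 and PSMD11 by 0.27 (all genes, 2.52%). None was lower, and 31 of 47 had a positive difference in all 3 treatments, against 27.9% of all genes tested. PSME3 was the only one called in each (all genes, 1.07%), and 9 were called in at least 1 (all genes, 5.87%).

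These counts moved with single libraries. The untreated count of 6 fell to 0 without replicate 2 of untreated shControl or of untreated shHuR, to 1 or 2 without replicate 1 of untreated shControl or shHuR, and was 12 without either HNE library of shControl. The HNE count of 5 was 1 without either HNE library of shHuR and 3 without either H2O2 library of shHuR. The H2O2 count of 3 was 1 without replicate 1 of shControl with H2O2 or without any 1 of the 4 treated shHuR libraries, and 6 without either HNE library of shControl.

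HNE was compared with no treatment over both lines, 4 against 4 libraries, which asks what the aldehyde does to these mRNAs after 18 h. With edgeR 0 of 47 genes passed an adjusted p of 0.05, and likewise 0 with DESeq2. Over all 15780 genes edgeR called 0.247% and DESeq2 called 181 genes. The smallest edgeR adjusted p among the 47 was 0.186. Of the 47, 43 had a positive log2 fold change, with a median of 0.11 against 0 over all genes. At an unadjusted p under 0.05 there were 16 higher and 1 lower, where 5.96% of all genes were higher. Without a filter on low counts ADRM1, PSMA3 and PSMD4 were called (edgeR adjusted p = 0.0468, 0.0354 and 0.0252, with 0.795% of all genes called higher).

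The positive values lay in both particles. All 14 core genes and all 10 base genes were above 0, with medians of 0.12 and 0.13, and all 9 lid genes, with a median of 0.12. The highest in each class were PSMA3 at 0.22, PSMB3 at 0.20, PSMC2 at 0.15, ADRM1 at 0.24 and PSMD14 at 0.19. Without replicate 2 of shControl with HNE, PSMA3 was at 0.12 and PSMB3 at 0.09, PSMD4 was at 0.11 in place of 0.22, PSMC2 and PSMD14 were at 0.11 and 0.13, and ADRM1 was at 0.20. The lowest were PSMA2 at 0.05, PSMB7 at 0.03, PSMC5 at 0.02, PSMD2 at 0.12 and PSMD8 at 0.03. The activators had a median of -0.02, from PSME1 at -0.09 to PSME4 at 0.11, with PSME2 at -0.06 and PSME3 at 0.03, and PSMF1 was at 0. The activators were thus the only class with a median below 0.

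ADRM1 had an HNE difference of 0.24 (SE 0.065, 95% interval 0.10 to 0.37, edgeR adjusted p = 0.186). Both HNE libraries were above both untreated libraries in each line, as the values given above show. This held for 12 of the 47 genes (PSMA6, PSMB1, PSMB2, PSMC1, PSMC2, ADRM1, PSMD1, PSMD4, PSMD11, PSMD3, POMP and PSME4), against 6.17% of all genes tested. Of the 47, PSME4 alone had all 4 HNE libraries above all 4 untreated libraries, at 134 to 140 CPM against 125 to 130 CPM. The share of all genes tested that met this stricter rule was not counted, so PSME4 cannot be set against a background. The HNE difference of PSME4 was 0.11 (SE 0.048, edgeR adjusted p = 0.374). Other values were 0.19 for PSMB1, 0.17 for PSMD1, 0.15 for PSMD11, 0.15 for POMP, 0.14 for PSMC1, 0.11 for PSMB5, 0.12 for PSMB6 and 0.10 for SHFM1.

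Assembly factors were mixed. PSMG4, a core chaperone, was at -0.20 (SE 0.070, unadjusted p = 0.0134, edgeR adjusted p = 0.275), with 20, 20.8, 22.3 and 21.5 CPM in untreated libraries and 18.1, 18.8, 18.4 and 18.4 CPM with HNE. PSMD5 lay at -0.42 with an interval from -0.93 to 0.09, and PSMD9 at 0.04.

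The HNE values moved with several libraries, among them replicate 2 of shControl with HNE. Without it 37 of 47 genes were above 0, the median was 0.07, and 12 were higher at an unadjusted p under 0.05, where 7.23% of all genes were. Leaving out any other of the 8 libraries gave 38 to 43 genes above 0 and medians of 0.08 to 0.13, and the count at an unadjusted p under 0.05 was lowest, 7, without replicate 1 of untreated shControl.

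By line, HNE gave 0 called genes in shControl (0.0187% of all genes called) and 0 in shHuR (0.0750%) with edgeR. With DESeq2 it gave 0 in both, where 71 (shControl) and 107 (shHuR) of all 16005 genes were called. At an unadjusted p under 0.05, 9 were higher and 0 lower in shControl, where 6.04% of all genes were higher. In shHuR 2 were higher and 1 lower, where 4.17% of all genes were higher and 4.78% lower, so the shHuR counts are near or below the background. PSMB10 showed the widest gap: its log2 fold change with HNE was 0.55 in shControl (12.7 and 21.9 CPM after HNE, against 10.5 and 13.1 CPM) and -0.05 in shHuR (15.6 and 16.2 CPM after HNE, against 18.5 and 14.5 CPM). The high shControl value came from 1 library, and the test of the difference between lines gave -0.60 (95% interval -1.22 to 0.02, edgeR adjusted p = 0.733). Leaving out 1 library moved the shControl value of PSMB10 between 0.12 and 0.88. It was 0.88 without replicate 1 of shControl with HNE, which left replicate 2 alone. The difference between lines passed for 0 genes with edgeR and DESeq2, with 0% of all genes called. At an unadjusted p under 0.05 there were 0 as well, where 6.73% of all genes passed in either direction.

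**Figure D4:**
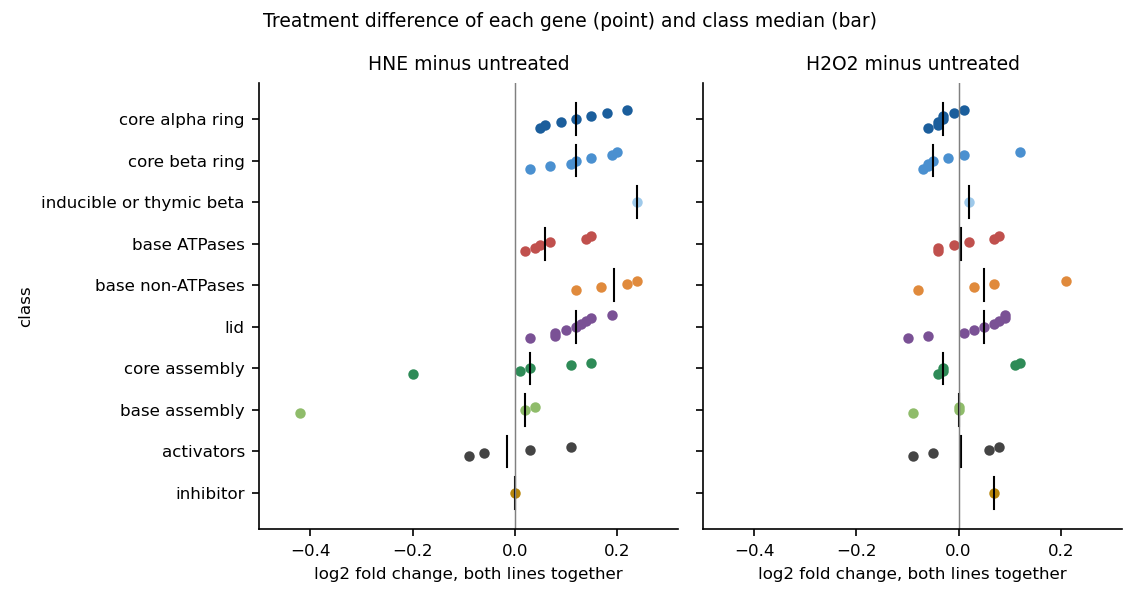
Log2 fold change of HNE (left) and H2O2 (right) over untreated for each gene (points), both lines together, with class medians (bars). With HNE the core, base and lid genes lie above 0, and with H2O2 the class medians lie between -0.05 and 0.07.

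Over all genes, H2O2 in both lines gave 0% called with edgeR and 3 of 15801 with DESeq2. Among the 47 it gave 0 called genes with either tool and a median of 0, with 22 above 0. At an unadjusted p under 0.05 there were 2 higher and 0 lower, ADRM1 at 0.21 (SE 0.062, edgeR adjusted p = 0.9) and PSMB2 at 0.12, where 2.31% of all genes were higher. ADRM1 was thus the highest of the base with either agent. The lowest values by class were PSMA2 at -0.06, PSMB7 at -0.07, PSMC6 at -0.04, PSMD4 at -0.08, SHFM1 at -0.10, PSMG4 at -0.04, PSMD5 at -0.09 and PSME2 at -0.09. The highest besides ADRM1 and PSMB2 were PSMA4 at 0.01, PSMC2 at 0.08, PSMD6 at 0.09, PSMG1 at 0.12 and PSME4 at 0.08. PSMD9 was at 0, PSMB10 at 0.02 and PSMF1 at 0.07. In each line alone 0 of the 47 passed with either tool. Over all 16005 genes edgeR called 0%, and DESeq2 called 2 in shControl and 3 in shHuR. At an unadjusted p under 0.05, 2 of the 47 were higher in shControl (all genes, 1.96%) and 0 in shHuR (all genes, 1.06%). Between lines 0 differed with either tool or at an unadjusted p under 0.05, where 3.62% of all genes did. The HNE and H2O2 comparisons share their untreated libraries and were not set against each other.

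**Figure D5:**
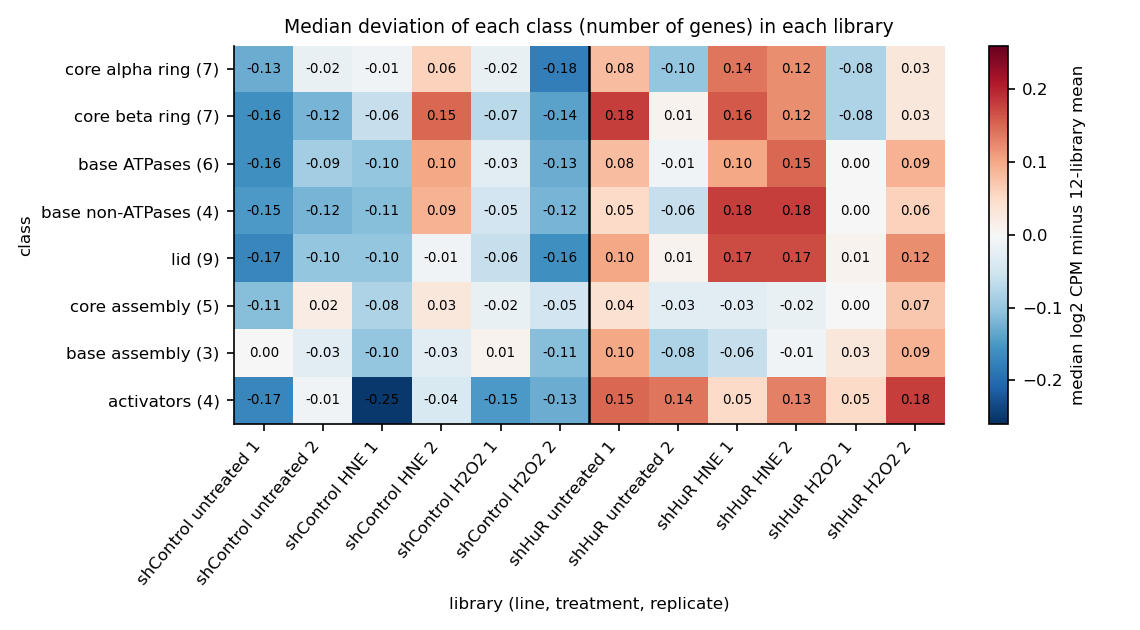
Median over the genes of each class of log2 CPM minus the gene's mean over 12 libraries (colour and number), by library. The lid runs from -0.17 to -0.01 in shControl and from 0.01 to 0.17 in shHuR, and the beta ring reaches 0.15 in replicate 2 of shControl with HNE.

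Read by library, the lid and the activators were the only classes whose medians kept the lines apart. The lid's median deviation was at or below -0.01 in all 6 shControl libraries and at or above 0.01 in all 6 shHuR libraries. For the activators the medians were at or below -0.01 and at or above 0.05. The alpha ring did not, with 0.06 in replicate 2 of shControl with HNE and -0.10 in replicate 2 of untreated shHuR. Over all 47 genes, both shHuR libraries with HNE had the highest median, 0.13, and replicate 1 of untreated shControl the lowest, -0.14.

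The promoters of the genes were read next, since many moved together between the lines. Proteasome genes are known targets of NFE2L1, a membrane-bound transcription factor that is released when proteasome activity drops and binds antioxidant response elements. The core of that element, TGACNNNGC on either strand, was searched in RefSeq promoter windows of GRCh38.p14 that run from 250 bases before to 50 after each gene's start. Windows were found for 41 of the 47; PSMA7, PSMB1, PSMB6, PSMB7, PSMD4 and PSMG3 had none. The motif was in a window of 16 of 41 proteasome genes (39.0%), against 18.0% of the 15972 genes of the table with a window and 13.3% of all 35116 windows. It was there for 10 of the 19 genes called higher in shHuR and for 6 of the 22 not called. The median line difference was 0.20 with the motif and 0.12 without it, and the median HNE difference was 0.10 with it and 0.11 without it.

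The windows around the motif are shown for 5 called genes of large difference that hold it upstream of the start. PSMB3, an uncalled gene that holds it too, is shown beside them and had a line difference of 0.15. The other uncalled genes with the motif had lower line differences: PSMG1 0.04, PSMG2 0, PSMD9 0, PSME4 -0.02 and PSMD5 -0.25. Capitals mark the motif, or its reverse complement for PSMC5, and each sequence is on the gene's strand.
PSMC5, chr17:63827649-63827687, plus strand: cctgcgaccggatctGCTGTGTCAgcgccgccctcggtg
PSMD12, chr17:67366719-67366757, minus strand: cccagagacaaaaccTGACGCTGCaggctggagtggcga
PSME2, chr14:24146762-24146800, minus strand: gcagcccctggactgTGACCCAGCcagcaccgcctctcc
PSMD3, chr17:39980755-39980793, plus strand: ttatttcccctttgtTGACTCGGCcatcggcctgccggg
PSME1, chr14:24136093-24136131, plus strand: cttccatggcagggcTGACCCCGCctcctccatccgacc
PSMB3, chr17:38752622-38752660, plus strand: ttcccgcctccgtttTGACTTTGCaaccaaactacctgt
The motif centre lay 53 bases before the start in PSMC5, 161 in PSMD12, 171 in PSME2, 33 in PSMD3, 82 in PSME1 and 100 in PSMB3. PSMC5 has 2 starts in the RefSeq table, and the distance is to the start whose window held the motif upstream. PSME3, the gene with the largest line difference, held no such motif in its window. A second motif, CCAAT, was in a window of 20 of the 41 (48.8%), against 42.1% of the table's genes with a window. A match is a stretch of letters only, and no binding was measured.

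The transcripts themselves were compared with those of other genes by the longest protein-coding transcript of each in GENCODE 29. Proteasome transcripts were short, with a median of 1590 bases against 3410 over 14254 genes tested, and so were their 3′ UTRs, with a median of 356 bases against 1280. The AU-rich pentamer ATTTA was in the 3′ UTR of 24 of 47 (51.1%), against 71.7% of all genes, and it was there for 12 of the 20 called and 12 of the 27 not called. It was present for PSME3 (1 copy), PSMD12 (8), SHFM1 (9) and PSMF1 (9) and absent for ADRM1 and PSMC5. Copies were counted without overlap, so stretches where copies share letters may hold more. These lengths and copies belong to the longest transcript, and which transcript the cells made was not tested. For SHFM1, with means of 94.9 CPM and 316 FPKM, the FPKM rested on a much shorter length than the 2667 bases taken here. Over the 47 genes the line difference had a Spearman correlation of -0.11 with 3′ UTR length and of 0.25 with GC content. This is a description across genes of the same 12 libraries, and over all genes the values were 0.01 and 0.09. The difference between 2 replicates of a group reached values as large over the 47 genes. By group it ran from -0.34 to 0.30 for 3′ UTR length and from -0.18 to 0.26 for GC content.

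The genes are spread over 18 chromosomes, and the calls were uneven among them. Of the 7 on chromosome 17, 6 were higher in shHuR (PSMB6, PSMC5, PSMD11, PSMD12, PSMD3 and PSME3) and PSMB3 was not called. Of the 7 on chromosome 14, PSME1 and PSME2 were. Among all genes tested on chromosome 17, 24.1% were called higher and 10.4% lower, the largest share of higher calls among chromosomes 1 to 22 and X, against 15.2% and 16.1% over all placed genes. Chromosome 20, with ADRM1, PSMF1 and PSMA7, had 22.5% and 13.9%. Its part, and that of chromosome 17, in the proteasome result was not tested, and this view was chosen after the calls had been seen. The genes lie at separate sites, PSMD3 at chr17:39980797-39997960, PSME3 at chr17:42824385-42843758 and PSMD12 at chr17:67337916-67366627 in GENCODE 29.

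Of the 47 genes, 11 have pseudogenes named after them in GENCODE 29, PSMC1 the most with 13, and 5 of the 20 called genes are among them (PSMD7, PSMD8, SHFM1, PSMD10 and PSME2). Reads could have been divided between such copies, so values of these genes are less certain.

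Genes that work beside the proteasome did not share one direction. Of 15 proteasome-associated proteins and ubiquitin shuttles, 6 were higher and 3 lower in shHuR, with a median of 0.06. Among all genes tested, 14.1% were called higher and 15.9% lower. Higher were UBQLN2 (0.55), a shuttle that brings ubiquitinated proteins, its relatives UBQLN1 and UBQLN4 (both 0.14), DDI2 (0.31), the protease that activates NFE2L1, TXNL1 (0.23) and the ubiquitin ligase UBE3C (0.17). The call of UBQLN4 was lost under 10 of the 21 alternatives, and the other calls were kept in each. Among the lower were AKIRIN2 (-0.31), which imports proteasomes into the nucleus, and KIAA0368 (-0.14), a proteasome adaptor also named ECPAS.

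Of 10 regulators of subunit transcription and of that pathway, 3 were higher and 3 lower (all genes, 14.1% and 15.9%). NFE2L1 itself was higher by 0.11 (SE 0.038, edgeR adjusted p = 0.0365), and BTRC, part of a ubiquitin ligase, by 0.38, and KEAP1, which restrains the related factor NFE2L2, by 0.15. MAFG (-0.26) and MAFK (-0.22), partners of NFE2L1 on DNA, and NGLY1 (-0.17), an enzyme that NFE2L1 needs for activation, were lower. Of the 21 alternatives, 8 lost the call of NFE2L1, 11 that of KEAP1 and 2 that of MAFK. BTRC, MAFG and NGLY1 kept theirs in each. Of 6 genes for ubiquitin and its activation UBA6 was lower (-0.21), and of 3 genes of the VCP segregase, which pulls proteins out of membranes and complexes, UFD1L was higher (0.35). The lists are short, and their counts were not tested against the shares over all genes. With HNE or H2O2 none of the genes on these lists passed in either line or over both.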

How the data were processed

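Per the labels' protocols, rRNA-depleted total RNA was made into directional libraries and sequenced as single-end reads. The authors deposited estimated counts per gene, of which 2.25% of values are not whole, and FPKM values per gene. Per the submitters' processing notes, cutadapt 1.8, Bowtie2 2.2, TopHat2 2.1, Cufflinks 2.2, Cuffnorm, Cuffdiff and hg19 were used; the role of each, the annotation and the use of strand in counting are not given in the sources used here. Totals of 24855946 to 29907258 counts a library and a biological coefficient of variation of 8.32% set the precision.

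Estimated counts were rounded, filtered (filterByExpr, minimum count 10), scaled by TMM and tested in edgeR 4.0.16 (R 4.3.3) with quasi-likelihood tests. A model of 6 group means gave comparisons within a line or treatment, and additive models gave the line difference (with treatment) and each treatment in both lines (with line). P-values are two-sided and were adjusted by Benjamini-Hochberg over all genes tested. Alternatives were DESeq2 1.42.0, limma 3.58.1 on log2(FPKM + 1) or with 0.1 added, other scalings and filters, a replicate block, only the groups compared, and leaving out each library. The fits were tested on simulated data. CPM per library uses TMM-scaled library sizes, and the mean CPM that chose the genes and the marker values use plain totals.

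The genes, classes and lists were chosen with earlier results of these data known. Named are all genes called in any comparison, the highest and lowest of each class in the 3 pooled comparisons, the genes of highest and lowest FPKM, a fixed set of subunits of known role, and pathway genes that were called. Genes added beyond that rule, such as those of an unadjusted p under 0.05, those that moved when a library was left out and PSMB3 and PSMA3, were chosen after their values were seen. Positions and transcripts come from GENCODE 29 and promoters from RefSeq, both on GRCh38; no coordinates of the files' own build were used. A sequence and a gene of the lists are not reported here.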

Additional observations from a re-analysis of the deposited data

Results flagged for a closer look

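Each gene's CPM was examined in the 6 libraries of each line. In 11 of 94 such groups 1 library lay far from the others, measured as its gap to the nearest library over the whole range. For 6 values drawn from a single normal distribution, such a gap arises in about 5% of groups. The libraries of a line span untreated, HNE and H2O2 cells, so the 11 of 94 cannot be set against that share. In 9 of the 11 the library far from the others was replicate 2 of shControl with HNE, which was the highest shControl library. PSMA3 stood at 193 CPM there against 125 to 149 CPM in the other 5, PSMA7 at 259 against 182 to 210 CPM, and PSMB3 at 117 against 78.8 to 90.6 CPM. Of the catalytic subunits, PSMB5 stood at 189 against 142 to 153 CPM, PSMB6 at 109 against 86 to 93.6 CPM, and PSMB10 at 21.9 against 10.5 to 13.1 CPM. In the regulatory particle and its assembly, PSMD4 stood at 314 against 204 to 232 CPM, PSMD13 at 148 against 103 to 116 CPM, and PSMD9 at 59.4 against 43.7 to 48.6 CPM. PSMB7 was lowest in replicate 2 of shControl with H2O2, at 116 against 123 to 126 CPM. PSMD6 was highest in replicate 1 of shControl with H2O2, at 203 against 165 to 174 CPM. These genes share the same libraries, so the 11 cases are not independent.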

How the results depend on the processing

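Over all treatments the count of genes higher in shHuR was 15 to 28 under every alternative (main count 20): 28 by library size alone, 27 without a filter on low counts, 24 by DESeq2, 19 with the replicate block, 15 to 17 by limma on FPKM, and 16 to 28 leaving out 1 library. PSMG3 was called as lower, beside these, without a filter and without replicate 1 of shControl with HNE or replicate 2 of shControl with H2O2. In untreated cells the count of 6 became 11 without a filter and 0 to 12 leaving out 1 library. With HNE the count of 5 became 8 by DESeq2, 3 with the replicate block, 2 by limma without a filter, 1 with only the groups compared, and 1 to 6 leaving out 1 library. With H2O2 the count of 3 became 5 without a filter and 1 to 6 leaving out 1 library. The HNE count of 0 over both lines became 3 without a filter, and that in shControl became 4. Over all genes, these fits without a filter called 334 of 20493 and 329 of 20857, against 39 and 3 in the main fit. The count in shControl also moved when 1 library was left out. For the line comparisons without a filter, calls over all genes were 5169 over all treatments, 1949 in untreated cells and 1802 with H2O2, of 20857. The main fit called 4787, 1277 and 1151 of 16005. The cause of these changes was not tested.

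Of single-gene values under other settings, 983 kept their direction and side of the threshold, 44 lost the call, 14 gained it and 4 changed sign; leaving out 1 library, the numbers were 1037, 112, 12 and 35. Those that changed sign follow. For the line they were PSMA2 (-0.02 to 0.04) and PSMD4 (-0.02 to 0.09) leaving out 1 library, and PSME4 at 0.01 by library size alone. For HNE in both lines, leaving out 1 library gave PSMA2 -0.01 to 0.09, PSMB7 -0.02 to 0.07, PSMC5 -0.07 to 0.11, PSMD8 -0.02 to 0.07, PSMD9 -0.07 to 0.11, PSME3 -0.01 to 0.05 and PSMF1 -0.04 to 0.07, with PSMF1 at -0.01 by library size alone. For H2O2 in both lines it gave PSMA4 -0.05 to 0.05, PSMB10 -0.04 to 0.11, PSMC6 -0.09 to 0, PSMD5 -0.20 to 0.01 and PSMD9 -0.04 to 0.03, with PSMD9 at 0 by library size alone and with the replicate block. PSMB10 with HNE in shHuR ran from -0.22 to 0.13.

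Over all genes tested, libraries of the same replicate number did not deviate together: over 15 pairs of groups the correlations ran from -0.11 to 0.13, and 2 were over 0.1. The replicate numbers were therefore not taken as pairs. These correlations were not computed for the 47 genes alone, which did move together within groups. In untreated, HNE and H2O2 cells, replicate 2 was higher for 36, 38 and 10 of them in shControl and for 10, 28 and 37 in shHuR. With 2 libraries a group, counts within a treatment rest on a spread shared over all groups.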
